A study of Mus musculus with 30 samples.

Results

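The maturation of the mouse cardiac ventricle without Sox6 was followed from postnatal day 1 (P1) to P60. All samples titled Sox6 KO at P1 (3 ventricles) and at P60 (3 ventricles) were taken, which is 6 of the 30 arrays of the series, and every gene measured on them was compared between the ages. The Sox6 KO mice carried 2 loxP-flanked Sox6 alleles and the MCK-Cre transgene (Sox6loxp/loxp; MCK-Cre), and the control mice carried MCK-Cre with no floxed allele named in their labels, so Cre was present in both genotypes. All mice were males of an FVB/B6 hybrid background, and each group had 3 biological replicates. The muscle creatine kinase promoter of MCK-Cre is active in skeletal and cardiac muscle and becomes stronger around birth, so the deletion is directed to muscle cells, and Cre activity is itself rising around the first age studied. None of the probes that could be given a gene name was named Sox6, so the deletion was not checked on these arrays. The study reports reduced Sox6 mRNA in postnatal Sox6 KO hearts by RT-qPCR.

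In the weeks after birth the rodent ventricle passes from growth by cell division to growth by enlargement of its cardiomyocytes. Fetal isoforms of the contractile proteins are exchanged for adult ones, the sarcomere and the calcium stores are extended, and energy comes from the oxidation of fatty acids more than from glucose. Sox6 is a transcription factor of the SOX family, which binds DNA through a high mobility group domain, and it is known as a repressor of slow and fetal isoforms in developing muscle. Fewer cells of a type and less RNA per cell cannot be told apart in RNA of whole ventricle, and this holds for every change below.

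Signal was measured with 1-colour Illumina bead arrays and is given as log2 of the intensity after quantile normalization, so that a difference of 1 is a 2-fold difference. Levels are comparable between arrays for 1 probe but not between probes. Of 17997 probes detected in at least 1 group, 2033 were higher (11.3%) and 1997 were lower (11.1%) at P60 than at P1 in the Sox6 KO, by limma's moderated test, with limits of 0.01 for the adjusted p and 1.5 for the fold change. "Rose" and "fell" are used below only for changes past both limits. The median change over all probes was 0.0064 on the log2 scale. The arrays of the 2 ages did not overlap for 4003 of the 4030 called probes. Passing both limits with 3 arrays in each group makes this likely, so it is no separate support. The share over all tested probes was not counted. A change of at least 4-fold was seen for 132 probes that rose and 181 that fell, and of at least 16-fold for 7 and 20. Arrays of 1 group correlated at r = 0.987 to 0.991 at P1 and 0.991 to 0.992 at P60, and the ages at 0.891 to 0.911 with each other. Precision is limited by the 3 arrays in each group. Of the probes tested, 6619 could be given a gene name, for 6459 genes with 1 probe each. Among these genes 1206 rose (18.7%) and 1014 fell (15.7%), with a median change of 0.049, and these shares are the background for the gene lists that follow. Most names belong to probes that the study kept only if present at every age, so detection of named genes was largely fixed in advance. Genes that go undetected are under-represented among them: 250 of the 1997 probes that fell were undetected at P60, but 18 of the 1014 named genes.

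The named genes that rose most were led by genes of striated muscle. This ranking and that of the falls took only called genes whose arrays did not overlap between the ages, so separation of the arrays was a condition of entry. Rpl3l, the striated muscle paralogue of ribosomal protein L3, had a log2 signal of 8.38, 8.19 and 7.97 at P1 and of 13.86, 13.79 and 14.12 at P60, a 53.7-fold rise (log2 change 5.75, SE 0.10, adjusted p = 2.87e-25). All 3 arrays at P60 lay far above all 3 at P1. Xirp2, an actin-binding protein of the intercalated disc and Z-disc, stood at 7.57, 7.20 and 7.02 and then at 12.02, 12.18 and 11.77 (26.5-fold). Tcap, or telethonin, which caps titin at the Z-disc, rose from 10.35, 10.35 and 9.60 to 14.09, 14.28 and 14.43 (18-fold). Ckmt2, the sarcomeric mitochondrial creatine kinase, rose from 11.11, 10.89 and 10.62 to 14.86, 14.87 and 14.95 (16.2-fold). The 3 ventricles of P60 were closer to each other than those of P1 for all 4 of these genes. Further genes among those with the largest rise were Ces1d, a carboxylesterase (33.6-fold), Acss1, the mitochondrial acetyl-CoA synthetase (14.7-fold), Cmya5, a sarcomere-associated protein also called myospryn (13.5-fold), Coq10a, a coenzyme Q-binding protein (10.2-fold), the cytokine gene Il15 (9.87-fold), and Fitm2, which acts in lipid droplet formation (9.15-fold). Lrtm1 (24.7-fold), 2310002L09Rik (20.9-fold), Lynx1 (9.73-fold) and Ano10, of the anoctamin family (8.69-fold), were also among them. Lynx1 was not even at P1, with 8.59 in replicate 1 against 6.96 and 7.03. Ces1d was named only through the study's table of genes it selected between the genotypes.

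The named genes that fell most were atrial myosin light chains, imprinted growth genes and histones. A fall of at least 16-fold was seen for 20 probes and for 13 named genes, and most tested probes have no name. Myl7, Dlk1, Bex4, Prc1, H2ac22 and H2ac12 were named only through the study's table of genes it selected between the genotypes. Myl4, the atrial essential light chain that the fetal ventricle also expresses, went from 14.90, 15.14 and 14.87 at P1 to 7.80, 8.48 and 7.58 at P60, a 129-fold fall (log2 change -7.02, SE 0.47, adjusted p = 4.54e-13). Myl7, the atrial regulatory light chain, went from 13.74, 13.81 and 13.56 to 6.85, 7.23 and 6.78 (108-fold), and at P60 it was detected on 1 of 3 arrays, so the fold is not exact. H19, a non-coding RNA expressed from the maternal chromosome, went from 14.60, 14.75 and 14.80 to 7.82, 7.66 and 8.06, a fall of 117-fold (log2 change -6.87, SE 0.12, adjusted p = 2.87e-25). No array of P60 came near an array of P1 for any of these 3 genes. Igf2, its paternally expressed neighbour and a fetal growth factor, fell 37.5-fold, from 15.08, 15.31 and 15.31 to 9.94, 9.81 and 10.26. Dlk1, an imprinted inhibitor of Notch-family signalling, stood at 11.65, 11.97 and 11.84 at P1 and was not detected on any array at P60, a fall of at least 27.7-fold. In such cases the P60 level is only a bound, and the fold is taken against the dimmest signal that counted as detected or the probe's own, whichever was higher. Bex4 (at least 21.9-fold), Myl9, the light chain of smooth muscle and non-muscle myosin (30.7-fold), Tubb2b, a beta tubulin (19.5-fold), Prc1, which bundles microtubules in the dividing cell (17-fold), and Col18a1, a collagen of basement membranes (12.8-fold), were also among the 15. The remaining 5 were histone H2A genes: H2ac24 (21.9-fold), H2ac13 (21.6-fold), H2ac7 (20.5-fold), H2ac22 (18-fold) and H2ac12 (at least 14.6-fold). These genes are near-identical copies of each other, so their probes may share targets and are not separate evidence.

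**Figure D1:**
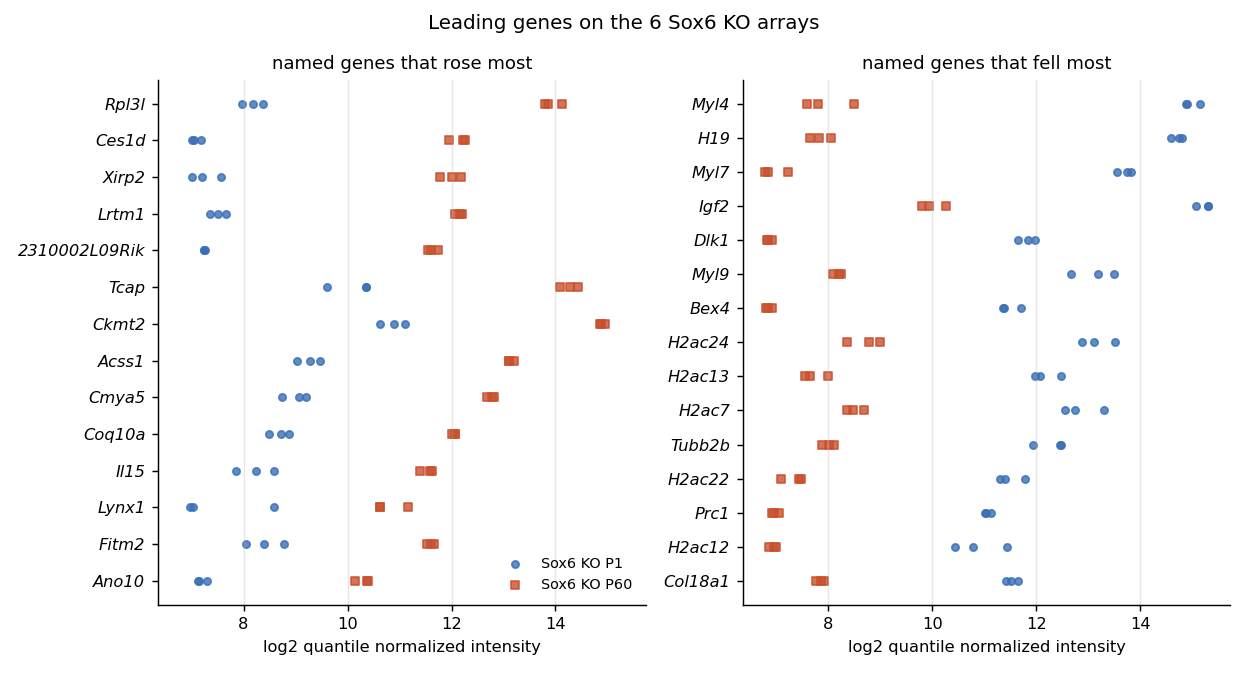
Log2 quantile normalized intensity (x axis) of 14 of the named genes that rose most (left) and the 15 that fell most (right) in the Sox6 KO ventricle, with a point for each of the 3 arrays at P1 (blue circles) and P60 (red squares). Only genes whose ages did not overlap were eligible. The changes run from 8.69-fold for Ano10 to 129-fold for Myl4, and Lynx1 has 1 P1 array at 8.59 away from the other two.

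Adult sarcomere genes rose and fetal or atrial isoforms fell. Of 30 measured genes of the adult sarcomere and Z-disc, 16 rose and 1 fell, with a median change of 0.77. Besides Xirp2, Tcap and Cmya5, Trim54, a ubiquitin ligase of the sarcomere (MuRF3), rose 5.33-fold and Ldb3, a Z-disc protein, rose 3.38-fold. Titin (Ttn) rose 2.09-fold, from 13.04, 12.63 and 13.01 to 14.10, 14.00 and 13.77. The gene that fell was Synpo2l, another Z-disc protein (1.64-fold), and 4 fell with median scaling, in which each array is scaled to the same median without the quantile step. Of the markers of ventricular cardiomyocytes, 7 of 13 rose (4 with median scaling) and none fell, and all were detected. Their summed intensity was 220333 to 237629 on the P1 arrays and 310767 to 320251 on the P60 arrays. Myh6, the adult alpha myosin heavy chain of rodents, rose 1.82-fold, while Myl2, the ventricular regulatory light chain, changed by 0.43 from 15.20, 15.11 and 15.38 to 15.66 on each array, under the 1.5-fold limit and close to the top of the range of the arrays. Tnni3, the adult cardiac troponin I, changed by 0.14 (adjusted p = 0.336), a sign that turns with median scaling (-0.20).

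Of 15 measured fetal and atrial contractile isoforms and natriuretic peptides, 11 fell and 1 rose, with a median change of -2.35. Myh7, the beta myosin heavy chain of the fetal rodent ventricle, fell 10.6-fold, from 11.23, 10.91 and 11.72 at P1 to 7.88, 7.88 and 7.89 at P60 (log2 change -3.40, SE 0.17, adjusted p = 7.6e-16). The spread of Myh7 between ventricles was wide at P1 and almost nil at P60. Nppa, which codes for atrial natriuretic peptide, fell 9.63-fold, from 15.53 ± 0.05 (SD, n = 3) to 12.26 ± 0.24 (SD, n = 3). Nppb, which codes for the B-type natriuretic peptide, fell 5.09-fold, from 12.94, 13.71 and 14.16 to 10.81, 11.59 and 11.35. No P1 ventricle overlapped a P60 ventricle in Nppa or Nppb. Dkk3, a secreted Dickkopf-family protein listed here as an atrial marker, fell 8.27-fold, Acta2, smooth muscle actin that is also made by fetal cardiomyocytes, 5.51-fold, and the tropomyosin gene Tpm2 3.27-fold. Myl1, an essential light chain of fast skeletal muscle and fetal heart, fell 2.27-fold. Myh8, the perinatal skeletal myosin heavy chain, rose 1.99-fold. Skeletal alpha actin, Acta1, did not pass the test: it stood at 11.14, 10.78 and 10.25 at P1 and at 11.63, 10.44 and 10.13 at P60, so that the ages overlapped (log2 change 0.01, SE 0.28, adjusted p = 0.974). The sign of so small a change turned with median scaling (-0.38) and when P1 replicate 3 (-0.22) or P60 replicate 1 (-0.43) was left out. Cardiac actin, Actc1, changed by 0.19 (adjusted p = 0.168).

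The promoters of 3 of these genes are shown because they carry some of the short sequences best known for cardiac and skeletal isoform genes. Their genes also behaved differently: Myl7 and Nppb fell and Acta1 did not change past the test. Each promoter window runs from 250 bases before to 50 bases after the start of the gene, on its strand, in RefSeq's GRCm38.p6. Capitals mark the CArG box, which serum response factor binds, the MCAT element CATTCC (or GGAATG on the other strand), which TEA-domain factors bind, and the TATA box TATAAA on the strand of the gene.
Acta1, chr8:123894726-123895025, minus strand: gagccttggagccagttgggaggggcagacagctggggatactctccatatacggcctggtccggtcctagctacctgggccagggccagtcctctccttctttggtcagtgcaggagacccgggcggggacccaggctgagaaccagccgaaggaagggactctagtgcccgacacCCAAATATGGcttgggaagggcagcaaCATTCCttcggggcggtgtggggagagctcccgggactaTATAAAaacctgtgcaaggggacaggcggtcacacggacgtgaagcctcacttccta
Myl7, chr11:5898733-5899032, minus strand: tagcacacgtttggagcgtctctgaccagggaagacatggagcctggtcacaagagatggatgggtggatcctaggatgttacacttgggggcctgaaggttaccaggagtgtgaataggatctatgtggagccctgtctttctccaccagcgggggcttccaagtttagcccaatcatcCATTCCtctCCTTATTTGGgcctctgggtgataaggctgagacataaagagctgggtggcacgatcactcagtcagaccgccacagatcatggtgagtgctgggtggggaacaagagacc
Nppb, chr4:147985650-147985949, plus strand: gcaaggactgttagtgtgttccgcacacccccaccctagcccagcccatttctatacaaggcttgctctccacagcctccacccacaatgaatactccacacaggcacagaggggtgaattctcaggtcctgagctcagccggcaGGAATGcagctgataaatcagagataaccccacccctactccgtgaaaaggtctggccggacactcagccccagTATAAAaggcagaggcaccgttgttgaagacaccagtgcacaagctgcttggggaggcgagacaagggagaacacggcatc
The CArG box of Acta1 begins 73 bases before the start and its MCAT element 46 bases before. In Myl7 the CArG box begins 61 and the MCAT element 70 bases before. The TATA letters begin 7 bases before the start in Acta1 and 31 in Nppb. No CArG box was found in the Nppb window and no TATA letters in the Myl7 window. Over the fetal and atrial list, searched on both strands except for the TATA box, 7 of 14 promoters held the MCAT letters (50%, against 14.6% of 27025 promoters of all genes), 4 a CArG box (28.6% against 1.57%) and 5 the TATA letters (35.7% against 8.88%). In the adult sarcomere list, which rose, 9 of 27 promoters held the MCAT letters (33.3%), 4 a CArG box (14.8%) and 2 the TATA letters (7.41%). The core letters that SOX proteins bind, ATTGTT or AACAAT, were found in 1 of the 14 (7.14%, against 10.9% of all). A match is a description of the letters in this window and not a site that was shown to be used.

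Calcium handling genes rose more often than they fell. Of 21 measured, 11 rose (6 with median scaling) and 2 fell. Hrc, a calcium-binding protein of the sarcoplasmic reticulum, rose 7.77-fold, from 10.78, 10.69 and 10.69 to 13.61, 13.71 and 13.72. Asph, whose locus gives rise to junctin, rose 5.29-fold, Tmem38a, a cation channel of the sarcoplasmic reticulum, 3.7-fold, and the calcium-binding gene S100a1 3.37-fold. The calcium release channel gene Ryr2 rose 1.81-fold and the calcium pump gene Atp2a2 1.59-fold. Sri, or sorcin (2.08-fold), and Calm2, a calmodulin gene (1.69-fold), fell. Among 21 ion channel, junction and transporter genes 9 rose and 5 fell. Kcnk3, a two-pore potassium channel, rose 4.46-fold and Slc4a3, an anion exchanger, 3.81-fold. Kcne1, the subunit of the slow delayed rectifier current, fell 11.3-fold, from 11.60, 11.18 and 11.52 to 8.09, 8.17 and 7.54. Gja5 (4.19-fold) and Gjc1 (1.79-fold), which code for the connexins of conduction tissue, and the Popeye-domain genes Bves (2.48-fold) and Popdc3 (2.35-fold) fell as well. Of 25 genes of the intercalated disc and costamere 9 rose, among them Itga7, the laminin receptor subunit of muscle (5.2-fold), Sgca, alpha-sarcoglycan (3.3-fold), and Dsp, desmoplakin (3.04-fold). Vinculin (Vcl) fell 2.09-fold, the 1 member that fell (3 with median scaling).

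Imprinted genes of fetal growth fell almost as a body. All 14 measured changed, 12 downward and 2 upward (1 upward with median scaling), with a median of -1.98. Behind H19, Igf2 and Dlk1 came Ddc, dopa decarboxylase (10.6-fold), Gpc3, a proteoglycan that restrains growth and is listed here beside the imprinted genes (8.96-fold), Grb10, an adaptor that dampens insulin signalling (4.97-fold), and Cdkn1c, a cell cycle inhibitor (4.11-fold). Gpc3 stood at 10.49, 11.03 and 10.87 at P1 and at 7.75, 7.75 and 7.41 at P60. The members that rose were Dcn, the matrix proteoglycan decorin (2.04-fold), and Impact, a translational regulator (1.63-fold). Growth factor genes outside the imprinted group were split, with 8 of 26 higher (4 with median scaling) and 11 lower. The heparin-binding growth factors Mdk (6.94-fold) and Ptn (5.73-fold) and the IGF-binding protein gene Igfbp5 (6.35-fold) fell. Grb14, another adaptor of the insulin receptor, rose 3.3-fold. Fgf1 rose 3.64-fold, with uneven values of 8.02, 7.66 and 6.91 at P1 and 1 P60 ventricle at 8.22, far below the other two.

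Genes of mitosis fell with a single exception. Of 29 measured, 28 fell and 1 was not called, with a median of -2.32. Of these, 20 have a name only through the study's table of genes that it selected between the genotypes on these arrays, and such a choice is not independent evidence of direction. Without them 8 of 9 fell, with a median of -1.35. Prc1 went from 11.03, 11.01 and 11.14 at P1 to 6.95, 7.04 and 6.92 at P60, where 1 of 3 arrays detected it, so the fold is not exact (17-fold, adjusted p = 2.74e-21). Cdk1, the kinase that starts mitosis, went from 10.13, 10.12 and 10.12 to 6.83, 6.95 and 6.93 and was not detected at P60 (at least 8.53-fold). Its partner cyclin B1 (Ccnb1) went from 10.02, 10.07 and 9.63 to 6.85, 6.83 and 6.87 and was likewise undetected (at least 7.35-fold). At P60 these genes were at or below the limit of detection. Cdca3 (at least 8.08-fold), Birc5, or survivin (at least 8.28-fold), Nusap1, a spindle protein (7.47-fold), and Cdc20, an activator of the anaphase-promoting complex (7.06-fold), fell as well. Members with names from other sources fell too, with Hmgb2, a chromatin protein of dividing cells, 6.58-fold, Cenpw, of the kinetochore, 6.02-fold, Mad2l1, of the spindle checkpoint, 4.99-fold, and Stmn1, a microtubule destabiliser, 3.11-fold. The exception was the checkpoint gene Bub3 (7.61, 7.49 and 7.40 at P1, and 7.94, 7.92 and 7.87 at P60). The list's count was 8 when only probes detected on all 30 arrays were tested, since that filter removes genes that go undetected.

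Promoters of genes of mitosis are known for CCAAT boxes and for the cell cycle homology region, with the letters TTTGAA, close to the start. The windows of Prc1, Cdk1 and Cdc20 are shown, with both motifs in capitals on either strand (CCAAT or ATTGG, and TTTGAA or TTCAAA) and the same 300-base frame and build as above.
Prc1, chr7:80294201-80294500, plus strand: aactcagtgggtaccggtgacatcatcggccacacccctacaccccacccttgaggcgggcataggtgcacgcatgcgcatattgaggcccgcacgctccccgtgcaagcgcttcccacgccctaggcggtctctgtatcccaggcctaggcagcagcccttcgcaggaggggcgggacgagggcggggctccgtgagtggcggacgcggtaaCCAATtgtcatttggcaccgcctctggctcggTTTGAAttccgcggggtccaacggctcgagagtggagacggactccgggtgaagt
Cdk1, chr10:69352863-69353162, minus strand: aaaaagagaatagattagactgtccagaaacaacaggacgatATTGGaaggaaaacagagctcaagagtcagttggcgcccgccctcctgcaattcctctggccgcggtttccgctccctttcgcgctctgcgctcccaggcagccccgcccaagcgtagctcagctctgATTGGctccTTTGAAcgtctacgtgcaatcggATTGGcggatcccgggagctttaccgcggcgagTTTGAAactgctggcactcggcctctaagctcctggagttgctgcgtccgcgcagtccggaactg
Cdc20, chr4:118437294-118437593, minus strand: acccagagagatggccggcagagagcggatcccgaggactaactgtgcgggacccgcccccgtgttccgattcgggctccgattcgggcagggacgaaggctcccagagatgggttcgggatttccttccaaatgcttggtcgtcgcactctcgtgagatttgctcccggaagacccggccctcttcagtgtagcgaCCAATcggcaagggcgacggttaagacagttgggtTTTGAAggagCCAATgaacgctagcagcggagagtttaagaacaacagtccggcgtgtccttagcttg
Prc1 holds 1 CCAAT box and Cdc20 holds 2. Cdk1 holds 3 CCAAT boxes, which begin 208, 80 and 48 bases before the start, and TTTGAA at 71 and 15 bases before. Both motifs were present in 20 of the 27 mitosis promoters that were matched (74.1%), against 7.12% of 27025 promoters of all genes. Taken alone, CCAAT was in 21 of the 27 (77.8% against 37.9%) and TTTGAA in 21 (77.8% against 18.1%), and 20 of the 28 TTTGAA matches lay from 50 bases before to 50 after the start. In the promoters of the fatty acid list TTTGAA was in 3 of 35 (8.57%).

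DNA replication followed, with 12 of 21 genes lower and none higher and a median of -0.71. Uhrf1, which copies DNA methylation at replication, fell 6.79-fold and Mcm5, of the replicative helicase, fell 4.31-fold, from 9.22, 9.64 and 9.70 to 7.30, 7.60 and 7.33. Among genes of the G1 phase 8 of 19 fell and 2 rose (4 rose without P1 replicate 2, 1 with median scaling). Cdk4, the kinase partner of cyclin D, fell 3.01-fold. Ccng1, a cyclin that p53 induces, rose 3.97-fold and E2f6, a repressor of the E2F family, 1.75-fold. High mobility group and replication-linked chromatin genes fell in 17 of 26 cases. The largest falls were those of Hmgn3 (6.9-fold) and of the histone variants H2az2 (5.61-fold) and H2ax (5.37-fold). The histone H2B genes H2bc4 (2.01-fold) and H2bc12 (1.65-fold) rose. Histone genes outside the list were looked at afterwards and also moved both ways, with H4c11 (2.95-fold), H2ac19 (2.52-fold) and H2ac18 (2.49-fold) higher.

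**Figure D2:**
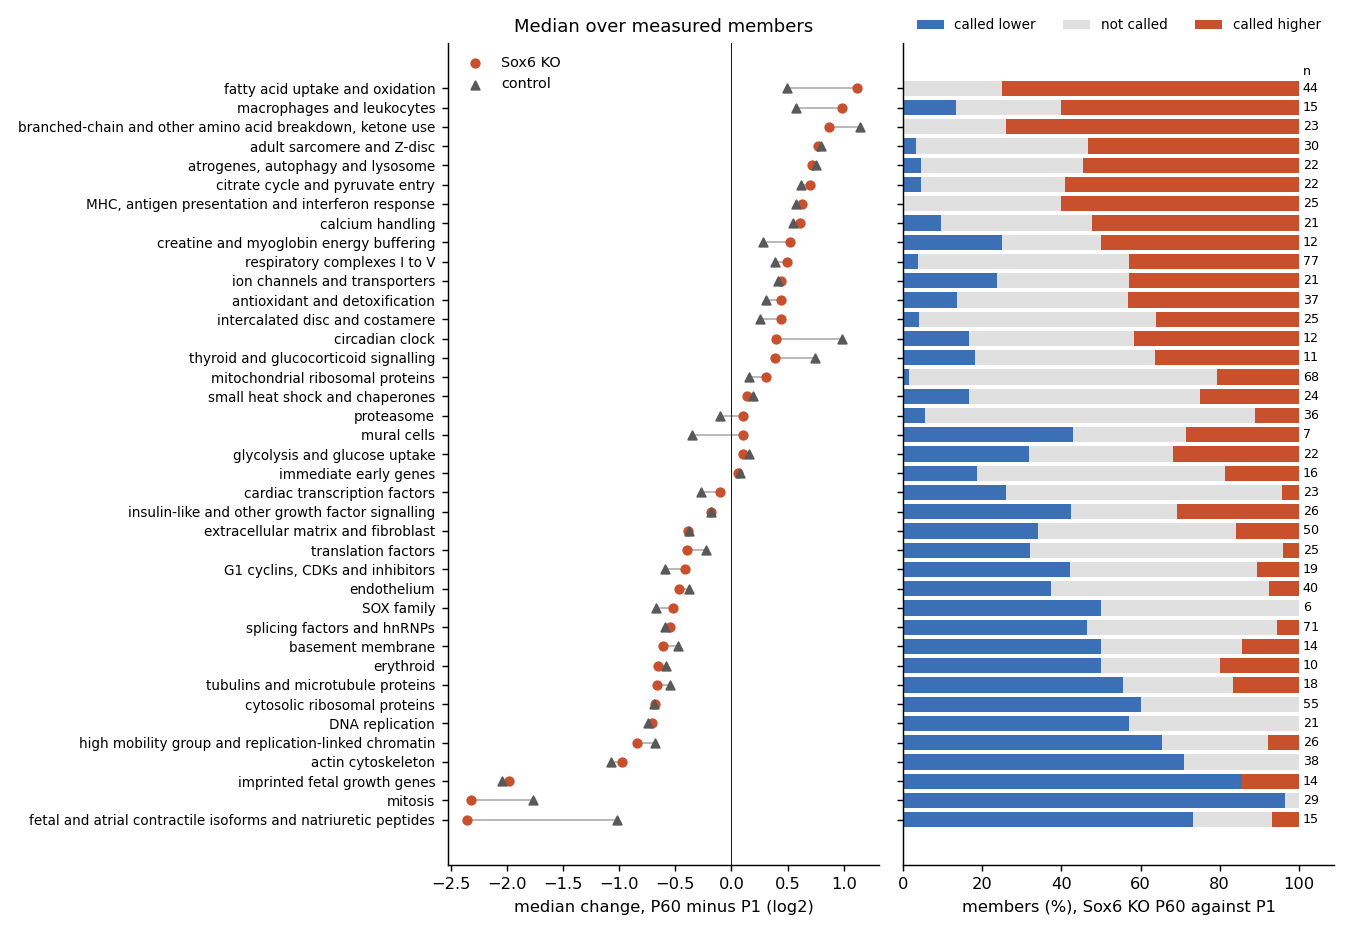
Left, median log2 change from P1 to P60 over the measured members of each gene list in Sox6 KO (red circles) and control (grey triangles), and right, the percent of members called lower (blue), not called (grey) and higher (red) in Sox6 KO, with the number measured. Lists with few measured members, of ventricular cardiomyocyte markers and of genes the paper names are not shown. Among the lists shown, fatty acid genes have the highest Sox6 KO median (1.12) and the fetal and atrial contractile isoforms the lowest (-2.35).

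Genes of oxidative metabolism rose more often than they fell, with fatty acid genes first. Of 44 measured genes of fatty acid uptake and oxidation, 33 rose and none fell, with a median of 1.12 (1 fell with median scaling, without P1 replicate 2 or without P1 replicate 3). Dgat2, which makes triglyceride, rose 8.43-fold, from 9.73, 8.78 and 8.82 at P1 to 12.26, 12.06 and 12.25 at P60. Plin5, the lipid droplet protein of oxidative tissue, rose 6.95-fold, from 8.42, 7.45 and 7.46 to 10.70, 10.40 and 10.62. Replicate 1 was the highest of the 3 P1 ventricles for both genes. Ech1, a peroxisomal and mitochondrial enzyme of unsaturated fatty acids, rose 5.83-fold, Cpt2, of the carnitine shuttle, 4.2-fold, Pdk4, the kinase that holds back pyruvate oxidation, 3.63-fold, and Acadvl, the very long-chain acyl-CoA dehydrogenase, 3.17-fold. Pdk4 spread widely at P1, at 11.02, 9.67 and 8.90. In the citrate cycle 13 of 22 genes rose (6 with median scaling). Ogdh, of the oxoglutarate dehydrogenase complex, rose 6.31-fold and Dlat, of the pyruvate dehydrogenase complex, 2.86-fold. Idh3b, the beta subunit of isocitrate dehydrogenase, fell 2.31-fold. In the breakdown of branched-chain and other amino acids and ketones 17 of 23 rose (11 with median scaling) and none fell, and Bckdha, of the branched-chain ketoacid dehydrogenase, rose 4.37-fold.

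Of 77 genes of the respiratory complexes 33 rose (16 with median scaling) and 3 fell (5 with median scaling), and the isoforms of cytochrome c oxidase moved apart. The muscle and heart isoforms Cox7a1 (3.55-fold), Cox8b (2.42-fold) and Cox6a2 (1.62-fold) rose. Cox7a1 stood at 13.43, 13.13 and 13.16 at P1 and at 15.03, 15.14 and 15.03 at P60. The widely expressed isoforms Cox6a1 (2.98-fold) and Cox8a (2.49-fold) fell, and Cox6a1 went from 13.49, 13.43 and 13.42 to 11.91, 11.78 and 11.93. Atp5k, a subunit of the ATP synthase, was the other gene that fell (1.63-fold). Energy buffering showed the same kind of exchange: Ckmt2 rose while Ckb, the brain-type creatine kinase, fell 3.73-fold, from 13.02 ± 0.12 (SD, n = 3) to 11.12 ± 0.14 (SD, n = 3). Of 12 genes in that list 6 rose (3 with median scaling) and 3 fell, the others being the adenine nucleotide carriers Slc25a4 (1.91-fold) and Slc25a5 (1.59-fold).

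Genes of glucose use moved both ways, with 7 of 22 higher and 7 lower and a median of 0.10 that was -0.21 with median scaling. Slc2a4, the insulin-responsive glucose transporter GLUT4, rose 4.28-fold, from 8.63, 8.67 and 8.59 to 10.85, 10.71 and 10.63. Slc2a1, the fetal transporter GLUT1, fell 3.34-fold, from 9.06, 9.81 and 10.56 to 7.99, 8.08 and 8.14. The P1 values of Slc2a1 covered a range that the P60 values did not. Hk2, the insulin-responsive hexokinase, rose 5.2-fold and the muscle forms Pygm, of glycogen phosphorylase (2.79-fold), and Pfkm, of phosphofructokinase (2.78-fold), rose with it. The non-muscle enolase Eno1 (3.55-fold), the platelet-type phosphofructokinase Pfkp (2.46-fold), phosphoglycerate kinase Pgk1 (2.18-fold) and Pdk1, a pyruvate dehydrogenase kinase (1.93-fold), fell.

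Genes of cytosolic translation and of splicing fell more often than they rose. Of 55 cytosolic ribosomal protein genes 33 fell and none rose, with a median of -0.68. Rpl3 fell 2.76-fold, from 14.06, 14.03 and 13.97 at P1 to 12.53, 12.55 and 12.58 at P60, while its muscle paralogue Rpl3l had the largest rise of all named genes. Rps4x (3.76-fold), Rpl15 (3-fold) and Rps23 (2.92-fold) fell as well. Many ribosomal protein genes have processed pseudogenes, so a probe may read more than 1 copy. Of 25 translation factors 8 fell (15 with median scaling) and 1 rose. Eef1a1, the elongation factor that muscle replaces after birth, fell 3.08-fold, and Eif4a2, a helicase of initiation, rose 1.89-fold. Eef1a2, the muscle and nerve isoform that takes the place of Eef1a1, was not in the list and was looked at afterwards, and it rose 4.09-fold. Genes of the mitochondrial ribosome had a median of 0.31, which was -0.09 with median scaling. Of 68 such genes 14 rose (6 with median scaling), near the share over all named genes, and 1 fell (3 with median scaling). Mrpl49 rose 3.3-fold and Mrpl52 fell 1.65-fold. Splicing factors fell in 33 of 71 cases and rose in 4 (2 with median scaling), with a median of -0.55. The serine and arginine-rich factors Srsf6 (4.09-fold) and Srsf5 (3.17-fold) had the largest falls. Those that rose included both regulators best known for adult splicing in heart and muscle: Rbfox1 went from 8.22, 8.16 and 8.10 to 10.83, 10.88 and 10.88 (6.53-fold), and Mbnl1 from 10.63, 10.71 and 10.64 to 11.72, 11.86 and 11.62 (2.1-fold). Prpf19 (1.62-fold) and Hnrnpul2 (1.58-fold) were the other 2.

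Cytoskeletal genes outside the sarcomere fell. Of 38 genes of the actin cytoskeleton 27 fell and none rose, with a median of -0.97 (1 rose without P1 replicate 1 or without P60 replicate 2). Tmsb10, a thymosin that sequesters actin monomers, fell 6.13-fold, from 13.06, 12.95 and 13.17 to 10.55, 10.72 and 10.06, Cnn3, a calponin, 4.14-fold, and Dstn, or destrin, 4.1-fold. Of 18 tubulin and microtubule genes 10 fell and 3 rose. Tubb5 (6.05-fold) and Tuba1a (4.32-fold) fell with Tubb2b, while the alpha tubulins Tuba8 (5.31-fold) and Tuba4a (4.8-fold) and the autophagy protein gene Map1lc3a (3.14-fold) rose. Tuba8 stood at 7.13, 6.93 and 7.03 at P1 and at 9.42, 9.60 and 9.30 at P60. Of 22 genes of autophagy, lysosome and muscle atrophy 12 rose and 1 fell. Of 36 proteasome genes 4 rose and 2 fell (4 and 7 with median scaling). Pink1, a kinase of mitochondrial quality control, rose 5.85-fold and Fbxo32, the muscle ubiquitin ligase atrogin-1, 3.19-fold. The mitophagy receptor gene Bnip3l fell 1.82-fold. Small heat shock proteins and chaperones were split, with 6 of 24 higher and 4 lower (4 and 8 with median scaling), near the shares over all named genes. The small heat shock genes Hspb8 (6.44-fold) and Hspb6 (3.43-fold) and their partner Bag3 (3.11-fold) rose, and Hsp90aa1 (2.51-fold) and the small heat shock gene Hspb1 (2.18-fold) fell. Detoxification genes rose in 16 of 37 cases and fell in 5. Gstk1, a mitochondrial and peroxisomal glutathione transferase, rose 6.54-fold, and Aldh1b1, a mitochondrial aldehyde dehydrogenase, fell 5.82-fold.

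Matrix and other cell types changed together with the cardiomyocyte genes, and their part in the changes above was not tested. Of 50 genes of extracellular matrix and fibroblasts 17 fell (26 with median scaling) and 8 rose, and their summed intensity was 60970 to 78786 at P1 and 50311 to 54437 at P60. Elastin (Eln) fell 7.04-fold, fibronectin (Fn1) 4.67-fold, and the fibrillar collagens Col1a1 3.5-fold and Col3a1 2.11-fold. Spon2, a secreted matrix protein, fell 5.18-fold. Gsn, or gelsolin (5.24-fold), and the small proteoglycan Ogn (2.67-fold) rose. Of 14 basement membrane genes 7 fell, led by Col18a1, Agrn (3.46-fold) and Col4a1 (3.32-fold), and 2 rose, namely the laminin gene Lamb2, of synapses and vessel walls (4.12-fold), and Col15a1 (1.74-fold). Endothelial genes fell in 15 of 40 cases (23 with median scaling) and rose in 3, with sums of 42669 to 46618 and 32018 to 34465. Ramp2, of the adrenomedullin receptor, fell 3.1-fold and Plvap, of fenestral diaphragms, 2.8-fold. Ly6c1 (3.31-fold), the water channel gene Aqp1 (2.5-fold) and Ptprb (1.95-fold) rose.

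Mural cell genes had sums of 29647 to 43296 at P1 and 7300 to 8988 at P60, where Myl9, Acta2 and Mcam (3.87-fold) fell and Rgs5 (2.49-fold) and Smtn (2.43-fold) rose among 7 genes. The median change of the 7 was 0.10, and the sums follow the bright probes of Myl9 and of Acta2, which fetal cardiomyocytes also express. Macrophage and leukocyte genes rose in 9 of 15 cases and fell in 2, with sums of 4872 to 6446 and 12031 to 15214. Lyz2, a lysozyme, rose 5.52-fold, from 8.12, 8.03 and 8.74 to 10.58, 11.07 and 10.64, C1qc, of complement, 2.64-fold and Csf1r, the macrophage growth factor receptor, 2.27-fold. Lyve1, of resident macrophages and lymphatics (2.03-fold), and Lgals3 (1.81-fold) fell. Of 25 genes of antigen presentation and interferon response 15 rose (9 with median scaling, and 9 without P1 replicate 2) and none fell (1 with median scaling). Ly6a, which is also an endothelial and progenitor antigen, rose 7.07-fold, Psmb8, of the immunoproteasome, 2.34-fold, Tap2 2.06-fold and B2m, the light chain of class I molecules, 1.87-fold. Erythroid genes had sums of 167871 to 184313 at P1 and 73022 to 112415 at P60. Hbb-bs (6.39-fold), Alas2 (5.07-fold), Slc4a1 (2.64-fold) and Hbb-b1 (1.67-fold) fell, and Tfrc, the transferrin receptor (2.16-fold), and Sptb, or beta spectrin (2.43-fold), which cardiomyocytes also express, rose. The P1 ventricles were not even in erythroid genes, with Alas2 at 9.86, 10.51 and 12.07, and beta globin genes are near-identical copies. No member of the lists of other cell types named here was undetected on all 3 arrays of a group. Most names belong to probes that the study kept only if present at every age, so this was largely fixed in advance. Markers of skeletal muscle, fat, other organs, epicardium and nerve had names for only 1 or 2 tested probes in each list, which is too few to describe those cells.

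Of 23 transcription factors of the heart 6 fell and 1 rose (2 rose without P1 replicate 2, none with median scaling). The other 16 were not called, which is near the share over all named genes, of which 34.4% were called. Gata6 fell 2.64-fold, from 12.45, 12.54 and 12.53 to 11.04, 11.11 and 11.16, Wwtr1, or TAZ, an effector of the Hippo pathway, 2.31-fold, Srf, serum response factor, 1.75-fold, Zfpm1, a GATA cofactor, 1.7-fold, Tbx20 1.59-fold and Prox1 1.55-fold. Tead1, which binds MCAT elements, rose 1.62-fold. Of 6 measured SOX genes 3 fell (5 with median scaling): Sox12 went from 10.64, 10.67 and 10.66 to 9.11, 8.96 and 8.91 (3.17-fold), Sox4 fell 2.5-fold and Sox17, of endothelium, 1.58-fold. None of the 6 rose. Clock genes were split. Dbp, an output gene of the clock, rose 5.33-fold, from 8.94, 9.27 and 9.01 to 11.20, 11.42 and 11.84, Bhlhe40 3.31-fold, Nr1d1 1.94-fold, Nr1d2 1.71-fold and Usp2 1.68-fold. Nfil3, which opposes Dbp at the same DNA sites, fell 2.4-fold and Per2, a repressor within the clock, 1.76-fold. Of these 12 genes 5 rose (3 with median scaling) and 2 fell (4 with median scaling, 1 without P1 replicate 3 or without P60 replicate 1). The time of day of collection was not given in the sources used here, so that age and hour cannot be told apart for clock genes. Targets of thyroid and glucocorticoid hormone were also split, with 4 of 11 higher (2 with median scaling) and 2 lower (4 with median scaling, 1 without P1 replicate 3). Hr, a corepressor induced by thyroid hormone, rose 4.22-fold, Cebpb 2.11-fold, and Klf9 1.54-fold. Thrsp is counted as higher on its measured levels, but it was undetected at P1 and the bound on its fold is at least 1.44, under the limit. On the other side, Sgk1 (2.5-fold) and Cebpd (1.56-fold) fell.

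The ages between P1 and P60 show when the change took place, as a description with no test. Over the probes that rose, a median of 27.4% of the whole log2 change was reached at P7 (quartiles 10.2% and 45.4%), 63.6% at P14 and 90.5% at P30. Over those that fell the medians were 27.2%, 70.2% and 95.1%. Most of the change thus lay between P7 and P30, but single genes differed. Myh7 was early, with a mean of 11.29 at P1 and 7.67 at P7, below its P60 mean of 7.89. H19 fell step by step, through 13.04 at P7 and 10.93 at P14 to 7.73 at P30. Prc1 was still at 10.83 at P7, close to its P1 mean of 11.06, and then at 8.73 at P14 and 6.97 at P30. Ces1d and 2310002L09Rik rose late: the former had means of 6.97 at P7, 7.97 at P14 and 11.88 at P30, and the latter 7.54, 8.36 and 11.28. Rpl3l rose at each age, through 10.49, 12.58 and 13.68.

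Some lists and genes did not move in one direction. The median change from P1 over the endothelial genes ran through 0.26, 0.37, -0.52 and -0.47 over the 4 later ages. Basement membrane genes had medians of 0.13, 0.75, -0.29 and -0.61, and genes of extracellular matrix and fibroblasts 0.18, 0.34, -0.28 and -0.39. All 3 lists were thus above their P1 level at P7 and P14 and below it later. Myl4 was at 11.18 at P7 and 8.91 at P14, at 10.30 at P30 and at 7.95 at P60. The other atrial genes had the same P30 values above those of P14: Myl7 had 7.22 at P14 and 8.48 at P30, and Nppa 11.42 and 13.09. Tfrc reached 12.18 at P14, above both its P1 mean of 9.74 and its P60 mean of 10.85. Per1 went from 9.21 at P1 to 7.46 at P7 and 9.28 at P14.

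**Figure D3:**
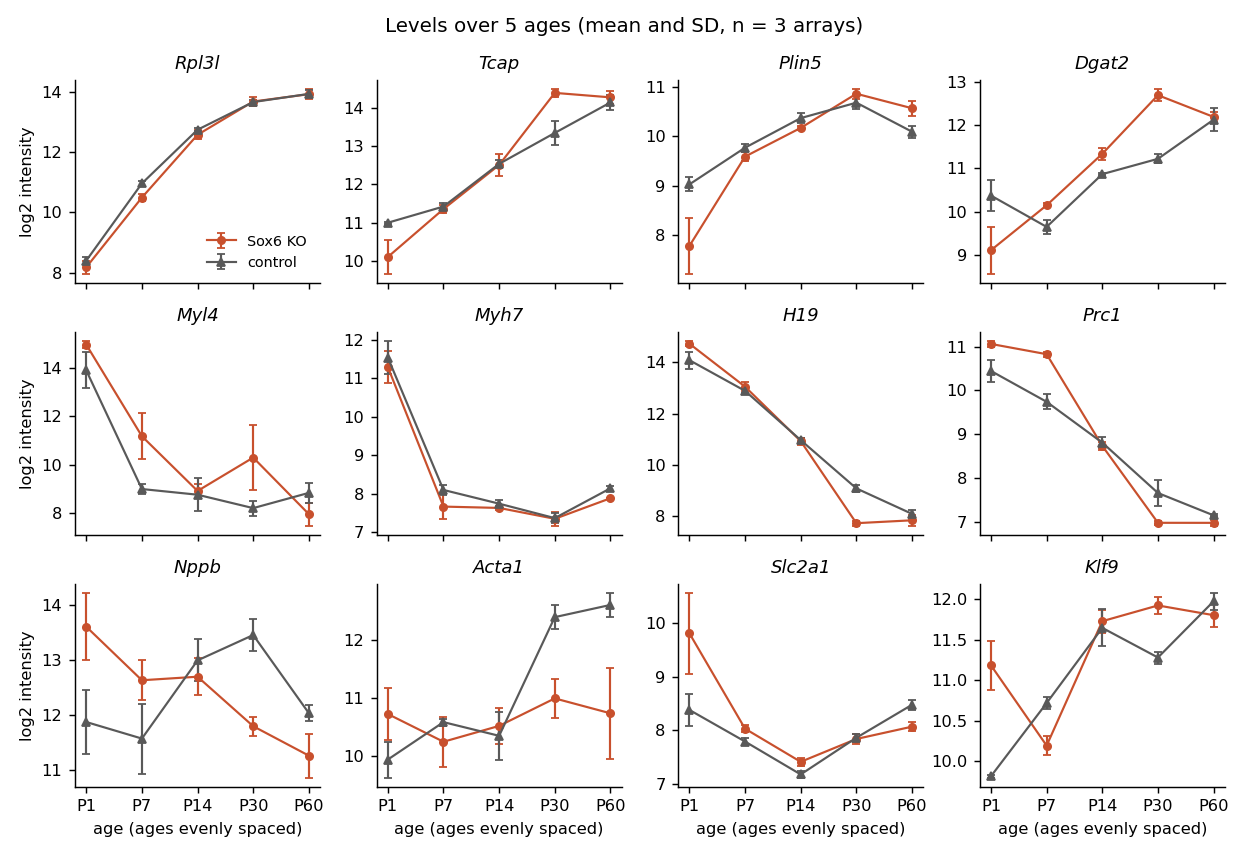
Mean log2 intensity (y axis, SD as error bars, n = 3 arrays) of 12 genes at P1, P7, P14, P30 and P60 in Sox6 KO (red circles) and control (grey triangles). In Sox6 KO, Rpl3l climbs from 8.18 to 13.92, Myh7 is down at P7, Prc1 is still at 10.83 at P7, and Acta1 stays between 10.24 and 10.99.

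The change from P1 to P60 was then set against that of the control ventricle, to see where maturation without Sox6 was different. The Sox6 KO change minus the control change was above 0 for 195 probes (1.08%) and below 0 for 228 (1.27%), by the same test and limits. Of the 195, the probe itself rose in the Sox6 KO in 112 cases, fell in 14 and was not called in 69, so that a difference above 0 can also be a smaller fall than in the control. Of the 228, 120 fell, 28 rose and 80 were not called. Among named genes these were 129 (2.00%) and 120 (1.86%). The counts depended on single P1 ventricles: without Sox6 KO P1 replicate 1 they were 313 and 409, without Sox6 KO P1 replicate 3 they were 127 and 176, and without control P1 replicate 1 they were 445 and 412. When the 12 arrays of the 4 groups were fitted alone, 37 and 48 probes were called. Of the 195 probes, the gap between the genotypes was larger at P1 than at P60 for 158, with a median gap (Sox6 KO minus control) of -0.60 at P1 and 0.23 at P60. Of the 228 this held for 156, with medians of 0.57 and -0.29.

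**Figure D4:**
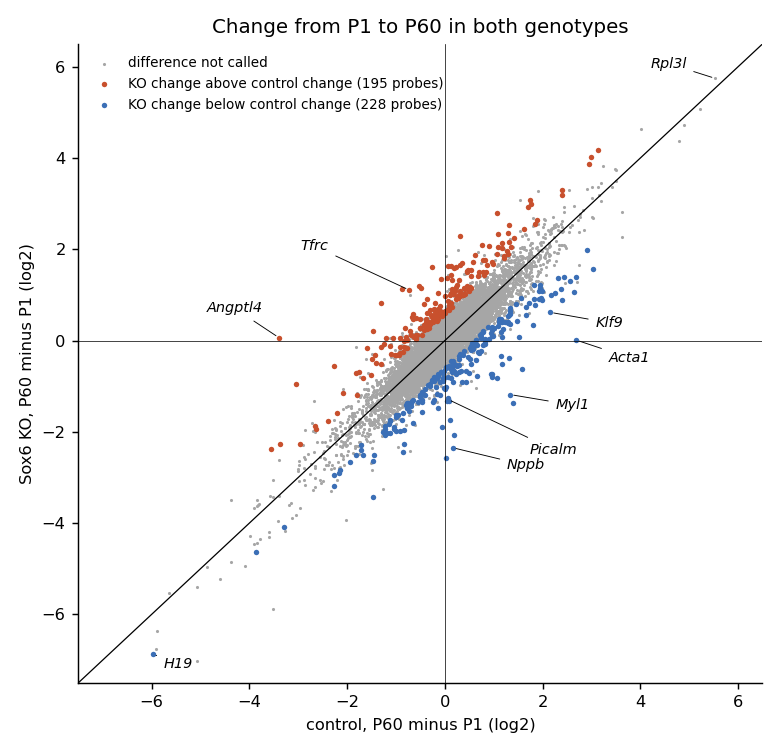
Log2 change from P1 to P60 in Sox6 KO (y axis) against that in control (x axis) for the 17997 probes tested, with the line of equal change. Coloured points are the 195 probes whose change was higher (red) and the 228 whose change was lower (blue) in Sox6 KO, and Acta1, Myl1 and Nppb lie well below the line while Angptl4 and Tfrc lie above it.

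Actin, light chain and natriuretic peptide genes moved differently in the genotypes. Acta1, which did not pass the test in the Sox6 KO, rose in the control from a mean of 9.93 to 12.62, a difference of -2.67 (SE 0.40, adjusted p = 0.000124). Its P60 ventricles in the Sox6 KO (11.63, 10.44 and 10.13) were uneven. Myl1 fell in the Sox6 KO, from 13.09, 13.24 and 12.85 to 12.40, 11.80 and 11.42, and rose in the control from a mean of 11.90 to 13.24 (difference -2.52, SE 0.32, adjusted p = 1.7e-05). Nppb fell in the Sox6 KO and had means of 11.87 and 12.03 in the control (difference -2.51, SE 0.43, adjusted p = 0.00054). The Sox6 KO was above the control at P1 and below it at P60 for both Myl1 and Nppb. Ankrd1, a stress-responsive sarcomere protein (difference -1.69), and Lrrc10, a cardiac actin-binding protein (-1.68), rose in the control alone by the test. Ccn2, a matricellular growth factor of fibrosis, fell in the Sox6 KO from 11.85, 12.42 and 14.05 to 10.27, 10.60 and 11.22, and the difference was -2.26 (SE 0.51, adjusted p = 0.0056). Of the fetal and atrial list Acta1, Myl1 and Nppb were called for the difference (5 members without control P1 replicate 1, and 4 without Sox6 KO P1 replicate 3 or in 5 other settings). The atrial light chains were not, with a difference of -1.95 (SE 0.66, adjusted p = 0.062) for Myl4 and -0.85 (SE 0.65, adjusted p = 0.45) for Myl7.

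The change of fatty acid genes was higher in the Sox6 KO for part of the list. The difference was called higher for 17 of the 44 and lower for none, and the median change was 1.12 against 0.49 in the control. Without the members named only through the study's table of genes selected between the genotypes, it was called higher for 15 of 42. At P1 the median gap of all 44 members (Sox6 KO minus control) was -0.47. Cidea, a lipid droplet gene and the 1 measured member of the adipocyte markers, moved the same way, with a change of 1.15 in the Sox6 KO and -0.50 in the control and a gap of -1.38 at P1, and the part of fat cells in these differences was not tested. Over the whole fatty acid list the count was 11 without Sox6 KO P1 replicate 2 and 11 without replicate 3. It was 11 without control P1 replicate 3, 20 without Sox6 KO P1 replicate 1, and 3 when the 12 arrays were fitted alone. Plin5 had a difference of 1.73 (SE 0.21, adjusted p = 1.5e-05), Dgat2 of 1.32, Acsl1, an acyl-CoA synthetase, and Ucp3, an uncoupling protein, of 1.18 each, Cpt2 of 1.16 and Acadvl of 0.81. Angptl4, an inhibitor of lipoprotein lipase, had the largest difference of the named genes (3.46, SE 0.68, adjusted p = 0.00202). This gene was named only through the study's table of genes selected between the genotypes, which is not independent evidence of a difference. It fell in the control from a mean of 10.96 to 7.57, while the Sox6 KO had 10.37, 7.66 and 7.27 at P1 and 9.21, 8.50 and 7.78 at P60. Replicate 1 at P1 thus stood near the control mean and the other two did not, and the sign of the Sox6 KO change (0.06) turned without P1 replicate 2 or 3, without P60 replicate 1 and with median scaling. Acot1, an acyl-CoA thioesterase, showed the same pattern, with 9.05, 7.71 and 7.70 at P1 and a difference of 1.70.

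**Figure D5:**
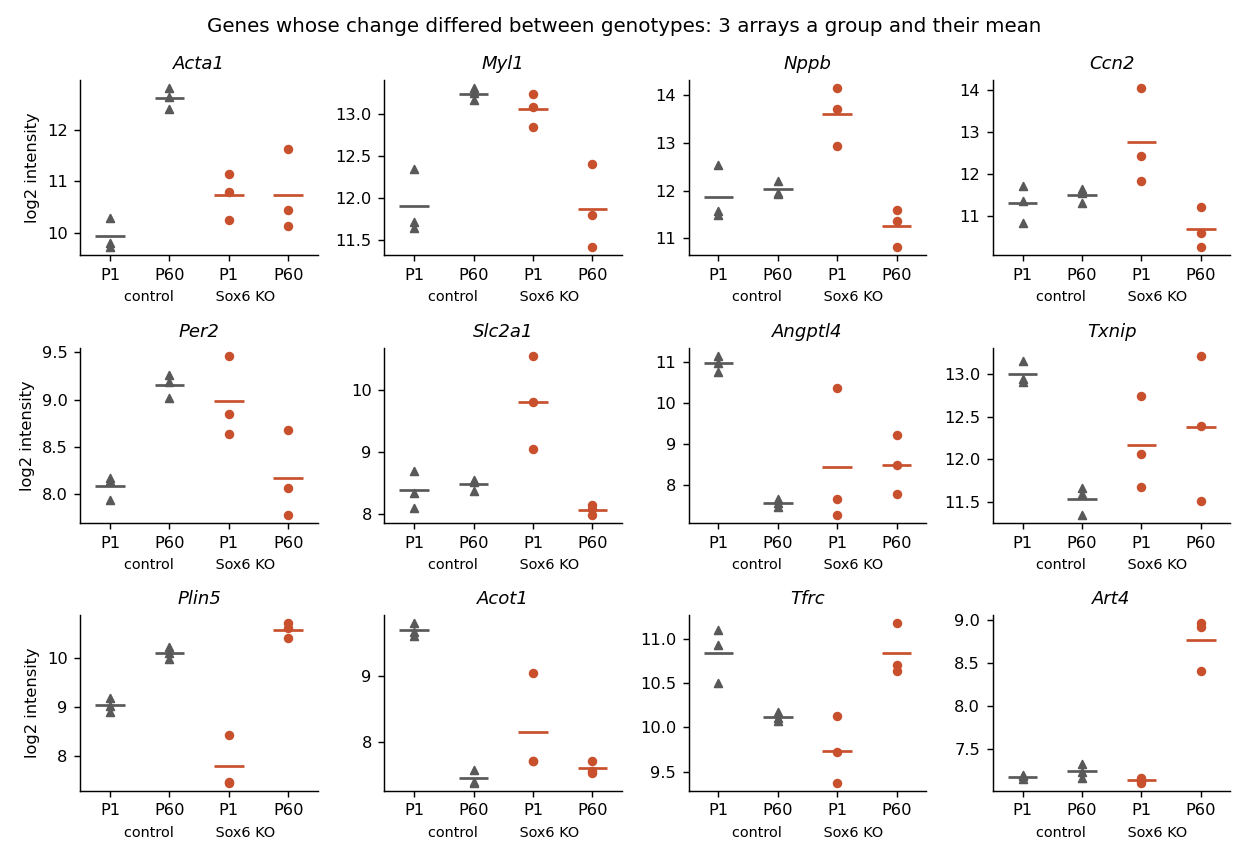
Log2 intensity on each array (points) and group mean (bars) at P1 and P60 in control (grey triangles) and Sox6 KO (red circles) for 12 genes whose change differed between the genotypes. Angptl4, Plin5 and Acot1 have Sox6 KO P1 replicate 1 above the other two, and Art4 has a mean of 7.14 to 7.24 in every group but Sox6 KO P60, where it is at 8.92, 8.96 and 8.41.

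Other genes with a large difference had varied roles. Tfrc rose in the Sox6 KO from 10.13, 9.37 and 9.72 to 11.18, 10.71 and 10.64 and fell in the control from a mean of 10.85 to 10.12 (difference 1.84). Rrad, which inhibits L-type calcium channels (1.87), Cidea (1.65), Art4, an ADP-ribosyltransferase (1.56), and 2210407C18Rik (1.98) rose in the Sox6 KO and were not called in the control. Rrad had 1 P1 ventricle at 7.86 against 9.46 and 9.49, and 2210407C18Rik was detected on 1 of 3 arrays at P1. Txnip, which restrains glucose uptake, was not called in the Sox6 KO (0.21), a sign that turned with median scaling and without P1 replicate 3 or P60 replicate 1, and fell in the control (difference 1.67). Among rhythmic and hormone-responsive genes, the difference was lower for Per2 (-1.89), Per1 (-1.75), Cebpb (-1.57), Klf9 (-1.54), Sgk1 (-1.41), Tef (-0.96) and Thrsp (-0.69). Klf9 had P1 values of 10.84, 11.30 and 11.41 in the Sox6 KO against a control mean of 9.82, and means of 11.80 and 11.97 at P60. Slc2a1 fell in the Sox6 KO and had control means of 8.38 and 8.48 (difference -1.84). Pam, an enzyme of peptide hormone amidation, fell in the Sox6 KO and rose in the control (difference -1.69), and Picalm, of clathrin coats, fell from 9.85, 9.75 and 9.80 to 8.50, 8.53 and 8.51 against control means of 7.27 and 7.34 (difference -1.35). Picalm remained above the control at P60. Pam and 2210407C18Rik were named only through the study's table of genes selected between the genotypes.

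Of the mitosis list 7 of 29 members fell further in the Sox6 KO, Prc1 (-0.79), Cdca3 (-0.91), Nusap1 (-0.73) and Stmn1 (-0.64) among them, with a median difference of -0.49 and a median gap at P1 of 0.49. Most of these members have a name only because the study selected them for a difference between the genotypes on these arrays, so this count supports nothing about the list. Without them 1 of 9 members was called, with a median difference of -0.14 and a median gap at P1 of 0.25. Over the whole mitosis list the count was 4 without Sox6 KO P1 replicate 2 and 4 with median scaling. It was 1 with normexp background correction and 0 when the 12 arrays were fitted alone. The ribosomal proteins of the cytosol had no call for the difference, and their median changes were -0.68 in the Sox6 KO and -0.69 in the control. Psmd8, a proteasome subunit, fell 2.1-fold in the Sox6 KO, from 10.72, 11.12 and 9.86 to 9.95, 9.43 and 9.11, with an overlap between the ages, and was not called for the difference (-0.76, adjusted p = 0.229). Its control means were 7.67 and 7.36, below every Sox6 KO array.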

How the data were processed

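Ventricle RNA was labelled and hybridised to Illumina MouseWG-6 v2.0 arrays, 1 colour, 3 biological replicates for each genotype and age. The authors deposited non-normalized intensities of 46255 rows, without detection p-values, and a table of quantile normalized intensities for 6784 probes. The version and background setting of the upstream software were not given in the sources used here. Slides and scan dates are not known here, so p-values measure the spread between these samples only.

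Rows read as negative controls (936) set detection at their mean plus 2 SD on each array. A probe was kept if 1 or more of the 10 groups had it detected on each of its 3 arrays, and the 17997 kept were taken to log2 and quantile normalized over 30 arrays. Group means were fitted with limma 3.58.1 in R 4.3.3 (20 residual degrees of freedom), with Benjamini-Hochberg adjustment over all probes and a call needed an adjusted p below 0.01 together with a 1.5-fold change. The script was tested on simulated data.

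Probe names came from the platform annotation of probes in the authors' processed table (6074 probes) and from the study's gene tables. Symbols were updated to RefSeq. The study had removed probes missing at 1 or more ages from that processed table, so genes detected at only some ages are mostly without a name here. For each gene the brightest named probe was used. Of the 144 genes with more than 1 probe, 0 had probes called in opposite directions. The text names the 15 genes with the largest change each way, the genes with the largest differences between genotypes, and the leading and opposing members of each list. A few genes that the rule takes in are not reported here. Genes outside this rule were chosen after their values were seen. Groups, members and lists were chosen with earlier results of these data known. The alternatives were another scaling, background, probe filter, table, variance model, threshold and set of arrays, a replicate block, and leaving out each replicate.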

Additional observations from a re-analysis of the deposited data

Results flagged for a closer look

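The change from P1 to P60 differed between Sox6 KO and control for 195 probes with a difference above 0 and 228 with one below 0, by limma's test of the difference itself. A difference above 0 is a larger rise or a smaller fall in the Sox6 KO. The following values are that difference, the Sox6 KO log2 change minus the control log2 change, for the named genes that passed the test. It was negative for Acta1 (-2.67), Myl1 (-2.52), Nppb (-2.51), Ccn2 (-2.26), Per2 (-1.89), Slc2a1 (-1.84), Per1 (-1.75), Ankrd1 (-1.69), Pam (-1.69), Lrrc10 (-1.68), Cebpb (-1.57), Klf9 (-1.54), Sgk1 (-1.41), Hsp90aa1 (-1.37), Picalm (-1.35), Tef (-0.96), Gsta3 (-0.92), Cdca3 (-0.91), H19 (-0.89), Srsf6 (-0.86), Pfkp (-0.82), Prc1 (-0.79), Bex4 (-0.78), Nusap1 (-0.73), Thrsp (-0.69), Stmn1 (-0.64) and Pdk1 (-0.63). It was positive for Angptl4 (3.46), 2210407C18Rik (1.98), Rrad (1.87), Tfrc (1.84), Plin5 (1.73), Acot1 (1.70), Txnip (1.67), Cidea (1.65), Art4 (1.56), Dgat2 (1.32), Col15a1 (1.22), Ucp3 (1.18), Acsl1 (1.18), Spon2 (1.18), Cpt2 (1.16), Tcap (1.03), Ckmt2 (1.03), Acss1 (0.93), Il15 (0.90), Tmem38a (0.81), Acadvl (0.81), Fitm2 (0.79) and Mrpl49 (0.76). Some of these genes, Angptl4, 2210407C18Rik, Pam, Prc1 and Bex4 among them, were named only through the study's table of genes selected between the genotypes. For these the difference is not independent evidence. Groups of 3 arrays were too small for a test of single samples that stand apart.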

How the results depend on the processing

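In the main setting 2033 probes rose and 1997 fell, and the difference between genotypes was called for 195 and 228. With normexp background 3876 rose and 3704 fell, with the authors' processed table (6784 probes tested) 1110 and 1123, with a 2-fold threshold 877 and 870, and at an adjusted p under 0.05 with no minimum fold 5388 and 5154. For the difference the authors' table gave 126 and 141, the 2-fold threshold 60 and 64, the adjusted p under 0.05 gave 778 and 924, and the 12 arrays alone 37 and 48. Leaving out single replicates gave 1988 to 2102 higher and 1977 to 2143 lower, and for the difference 127 to 445 and 165 to 412. With median scaling 2143 rose and 2852 fell, of which 1347 and 1824 were shared with the main setting, and 169 and 296 were called for the difference. Median scaling moved the median of all probes to 0.14 and the share of higher calls from 50.4% to 42.9%, and for the difference from 46.1% to 36.3%. Replicate numbers were not treated as pairs in the main setting. Deviations of same-numbered arrays of the 2 ages correlated at 0.074, 0.040 and -0.004 in the Sox6 KO and at 0.096, 0.003 and 0.070 in the control. Those of differently numbered arrays correlated at -0.061 to 0.024 and at -0.121 to 0.088. Whether replicates shared an effect was not tested. With the replicate block 2038 rose and 2000 fell, with 271 and 306 for the difference. The sign of the Sox6 KO change turned for 4 genes that were not called: with median scaling Tnni3 (-0.20), Acta1 (-0.38), Angptl4 (-0.16) and Txnip (-0.19), for Acta1 among probes detected on all 30 arrays (-0.004) and in the authors' table (-0.03), without P1 replicate 2 for Angptl4 (-0.33), without P1 replicate 3 for Angptl4 (-0.52), Acta1 (-0.22) and Txnip (-0.03), and without P60 replicate 1 for Angptl4 (-0.29), Acta1 (-0.43) and Txnip (-0.21). Leaving out single replicates took these changes up to 0.31 for Acta1, 1.03 for Angptl4 and 0.64 for Txnip. Calls were less stable than signs. Of the 50 named genes flagged above for the difference between genotypes, 36 lost that call in 1 or more settings, and the sign turned for 0. For the Sox6 KO change, 44 named genes lost the call and 6 gained it in 1 or more settings. The cause of these shifts was not tested. Dim probes limit what can be said at P60, where 250 of the probes that fell were detected on 0 of 3 arrays and their fold is a bound.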
